A study of Caenorhabditis elegans with 10 samples.

Results

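Circular RNAs (circRNAs) of 3 genes that encode RNA-processing factors, *emb-4*, *Y65B4A.6* (*eif-4A3*) and *Y92H12A.4* (*ints-3*), were examined in wild-type and *nova-1* mutant *C. elegans*. A row of the count table was taken when its host gene in the study's list of detected circRNAs was one of the 3. The list row was found by identical coordinates or, failing that, as the only row of that chromosome whose start lay no more than 150 nt away and whose span differed by no more than 1 nt. This gave 4 of the 141 circRNA loci in the table, which were 1 for *emb-4*, 1 for *Y65B4A.6* and 2 for *Y92H12A.4*. The study's list of detected circRNAs is much longer than the table. All shares, ranks and adjusted *P* values below therefore refer to the 141 loci and not to every detected circRNA. Total RNA was sequenced from whole hermaphrodites at adult day 3. The groups were 5 biological replicates of the wild-type strain N2 (variety Bristol) and 5 of the strain VDL1105, which carries the *nova-1(tm6146)* deletion and had been outcrossed. Both genotypes were moved at the L4 stage to plates with 5-fluorodeoxyuridine, which prevents progeny, and each replicate is a pellet of many animals of all tissues. In such bulk samples, fewer cells that make a circRNA and fewer molecules per cell cannot be told apart. No locus of the table has *nova-1* as host, and the deletion was therefore not checked from these counts.

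A circRNA forms when the spliceosome joins the 3′ end of an exon back to its own 5′ end or to that of an exon further upstream, and each locus is counted by the reads that cross this back-splice junction. The 3 host genes act at different steps of RNA processing. EMB-4 is the worm ortholog of Aquarius, a spliceosomal helicase that binds introns, and acts in the germline small RNA pathway. *eif-4A3* encodes a DEAD-box helicase of the family whose member eIF4A3 is a core subunit of the exon junction complex in mammals. INTS-3 is a subunit of Integrator, the complex that cleaves the 3′ ends of small nuclear RNAs. NOVA proteins are RNA-binding splicing factors, and the comparison asks whether the back-splice junctions of these genes differ in abundance when *nova-1* is lost.

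All 4 circles consist of coding exons inside the gene. In the WBcel235 annotation (Ensembl release 115), *emb-4* lies on the minus strand of chromosome V from 18860285 to 18894974 and has 19 exons in its longest transcript. Its circRNA cel_circ_0000669 is listed in the count table at 18870870 to 18872930 on chromosome V. Both ends lie 36 nt below those of exons 13 and 14, which span 18870906 to 18872966, and the table's coordinates were not converted. The 2 exons are 341 and 76 nt long and enclose an intron of 1644 nt, so that the spliced circle would hold 417 nt, all of them coding. The intron upstream of exon 13 (4049 nt) is the longest of the 18 introns of the transcript, and the downstream intron (2699 nt) is the fourth longest.

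*Y65B4A.6* lies on the minus strand of chromosome I from 629465 to 636345 and has 3 exons. Its circRNA cel_circ_new_0001170, listed at 633894 to 634800, corresponds to exon 2 (633891 to 634797), with both ends 3 nt above the annotated ones. This exon has 907 nt, all coding, between introns of 1436 and 2605 nt. It is a large exon for a circle in this table, since 3 of the 42 loci that correspond to a single exon, this one included, have one of at least 907 nt.

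*Y92H12A.4* lies on the plus strand of chromosome I from 1514755 to 1540926. Its 2 loci describe exon 8 of 16, which spans 1524298 to 1524643 (346 nt, all coding) and sits between introns of 1839 and 1201 nt. The locus cel_circ_new_0000027 has exactly these ends, and cel_circ_0000027 has both ends 1 nt higher. Their 200-nt junction scaffolds therefore share 99 nt of genomic sequence on each side of the junction, and a read could have been counted for either one. For this reason both are given separately and summed. The map of the host genes shows the circularized exons.

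**Figure D1:**
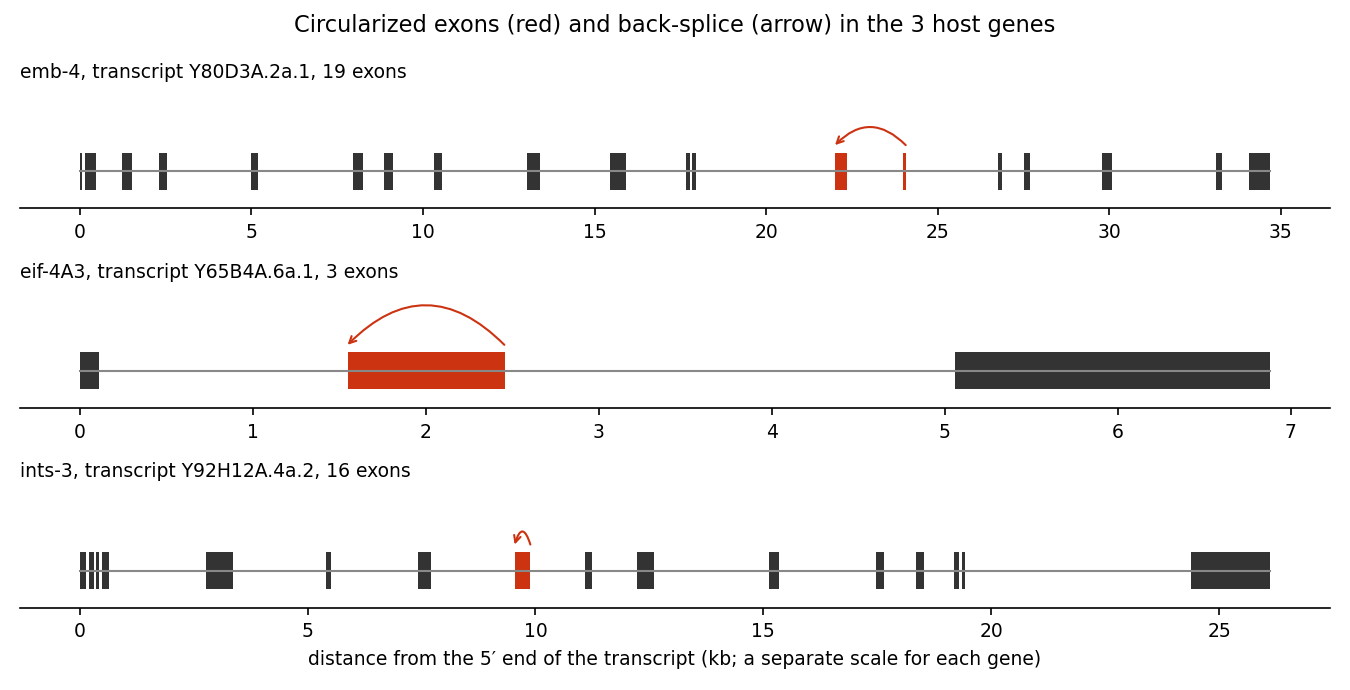
Exons (boxes, to scale) of the longest transcript of each host gene that holds the circularized exons, against the distance from its 5′ end in kb, on a separate scale for each gene; red boxes are the exons in the circle and the arrow is the back-splice. The circles hold exons 13 and 14 of 19 in *emb-4*, exon 2 of 3 in *eif-4A3* and exon 8 of 16 in *ints-3*.

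Ends were taken to correspond to exon ends when both lay no more than 150 nt from them, with shifts that differed by no more than 1 nt. Over all loci, 117 of the 134 with a host gene in the annotation have ends that correspond to exon ends in this sense, 42 with 1 exon and 33 with 2 exons. Their median exonic length is 398 nt, and the exonic length of 39 of the 117 is divisible by 3. Of the members, the 417 nt of the *emb-4* circle are divisible by 3, whereas the 907 nt of *Y65B4A.6* and the 346 nt of *Y92H12A.4* are not. The median flanking introns over these loci are 1361 nt upstream and 1556 nt downstream, so that the introns on both sides are longer than the medians for *emb-4* and *Y65B4A.6*. By span, both *Y92H12A.4* loci are among the 58 of the table under 500 nt and the *emb-4* locus is among the 41 of 1300 nt or more.

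The circRNA counts of a replicate summed to 7955 to 15014 in wild-type (median 8594) and 8514 to 9437 in *nova-1* mutants (median 8972). The total of 15014 belonged to wild-type replicate 1, and those of the remaining wild-type replicates reached 10283 at most. Counts were normalized with TMM and expressed per 9421 counts, the average effective library size, and were tested over all 141 loci with the quasi-likelihood *F*-test of edgeR. Fold changes are *nova-1* over wild-type, so that a negative log2FC is a lower level in the mutant. Together the 4 loci held 0.698% to 1.49% of the circRNA counts of the table in the wild-type replicates and 0.560% to 0.884% in the *nova-1* replicates.

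The 4 loci all had a negative log2FC, and 2 of them passed an adjusted *P* under 0.05, *emb-4* and *Y65B4A.6* (edgeR). Over all 141 loci, 57.4% had a negative log2FC, 28.4% passed the adjusted threshold in either direction and 12.8% passed it with a lower level in *nova-1* mutants. The median log2FC was -0.83 over the 4 loci and -0.10 over all loci. With column totals in place of TMM the median of all loci moved to 0.14, 38.3% of all loci had a negative log2FC and the share of loci with an absolute log2FC above 0.5 and an unadjusted *P* under 0.05 that were higher in *nova-1* mutants went from 52.6% to 68.6%, while all 4 loci remained negative. The 2 *Y92H12A.4* loci count nearly the same junction and are not independent. A looser rule, an absolute log2FC above 0.5 with an unadjusted *P* under 0.05, was met by the same 2 loci, and by 40.4% of all loci in either direction and 19.1% in the lower one.

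The *emb-4* circRNA had the largest decrease of the 4 loci. Wild-type replicates 1 to 5 had 24, 9, 6, 6 and 20 counts, and *nova-1* replicates 1 to 5 had 3, 4, 6, 2 and 1. The wild-type replicates fell apart into replicates 1 and 5, with 21.5 and 20.7 normalized counts, and the other 3, with 6.99 to 8.96. All 5 *nova-1* replicates, with 1.09 to 5.35 normalized counts, were below them. The margin was narrow, since wild-type replicates 3 and 4 and *nova-1* replicate 3 had 6 raw counts each. Such separation with *nova-1* below occurred at 9.93% of all loci.

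In the mean, the *emb-4* circRNA had 13.1 ± 7.41 wild-type and 3.00 ± 1.68 *nova-1* normalized counts (SD, n = 5 each). The log2FC was -2.08 (standard error 0.55, 95% interval -3.20 to -0.96, adjusted *P* = 0.00529, edgeR), and only 3 of the 141 loci had a lower one. The wild-type level was thus 4.22-fold that of the mutant, with an interval of 1.94 to 9.18. In total the locus had 65 counts in wild-type and 16 in *nova-1* mutants. It ranked 111 of 141 by level in wild-type and 136 in *nova-1* mutants. All 10 fits that each left out one replicate kept it past the adjusted threshold, with a log2FC from -2.39 to -1.82 and an adjusted *P* from 0.00582 to 0.0211 (edgeR). A filter on low counts, which kept 118 of the 141 loci, removed it.

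**Figure D2:**
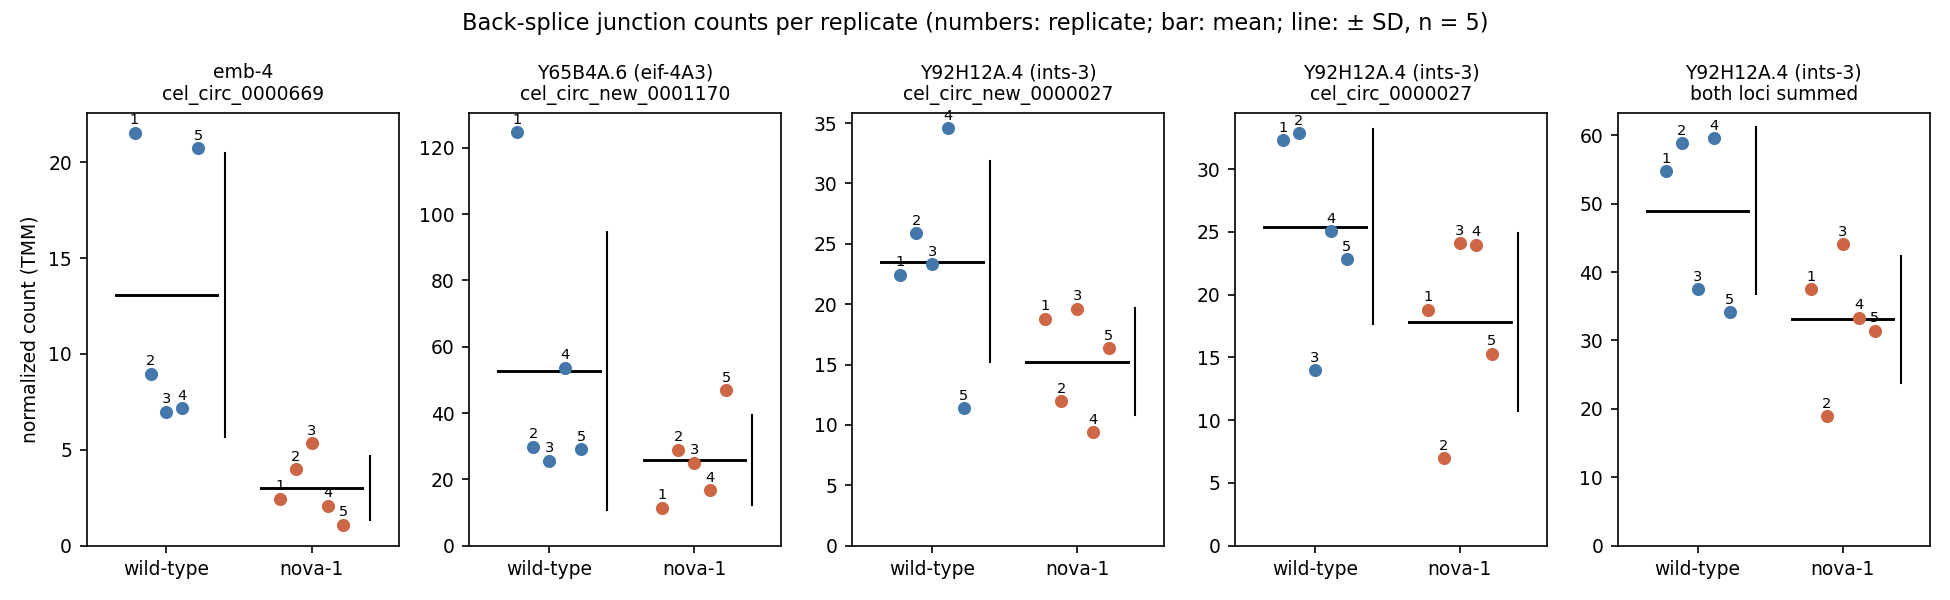
TMM-normalized counts (vertical axis, from 0, on a separate scale in each panel) of the 4 loci and of the summed *Y92H12A.4* pair in the 5 wild-type and 5 *nova-1* replicates. Each point is a replicate with its number, the horizontal bar is the mean and the vertical line is the SD. The *emb-4* groups do not overlap, and wild-type replicate 1 stands at 125 for *Y65B4A.6*, above 53.7 in the next highest.

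The *Y65B4A.6* circRNA was lower in *nova-1* mutants, but this rested mainly on 1 wild-type replicate. Wild-type replicates 1 to 5 had 139, 30, 22, 45 and 28 counts, and *nova-1* replicates 1 to 5 had 14, 29, 28, 16 and 43. Wild-type replicate 1 alone held 52.7% of the wild-type counts and had 3.61 times the mean normalized count of the other 4. Those 4 ranged from 25.6 to 53.7 normalized counts and overlapped with the *nova-1* replicates, which ranged from 11.5 to 47.0.

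With all replicates, the *Y65B4A.6* circRNA had 52.6 ± 41.9 wild-type and 25.8 ± 13.7 *nova-1* normalized counts (SD, n = 5 each), with a log2FC of -1.05 (standard error 0.39, 95% interval -1.84 to -0.26, adjusted *P* = 0.0409, edgeR). Its coefficient of variation was 79.6% in wild-type and 53.0% in *nova-1* mutants, compared to medians over all loci of 37.0% and 30.7%. Without wild-type replicate 1 the wild-type mean was 34.5 ± 12.9 (SD, n = 4), and the log2FC was -0.43 (adjusted *P* = 0.278, edgeR). The adjusted threshold was also lost without wild-type replicate 4 (0.0706) and without *nova-1* replicate 1, 2, 3 or 4 (adjusted *P* of 0.102, 0.0685, 0.0629 and 0.103, edgeR), so that 4 of the 10 fits kept it. It ended as well with DESeq2 (adjusted *P* = 0.0572), with robust dispersion estimation (0.0676, edgeR) and with column totals in place of TMM (0.136, edgeR). The log2FC stayed negative in all of these fits. The plot of log2FC by fit sets these values side by side.

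**Figure D3:**
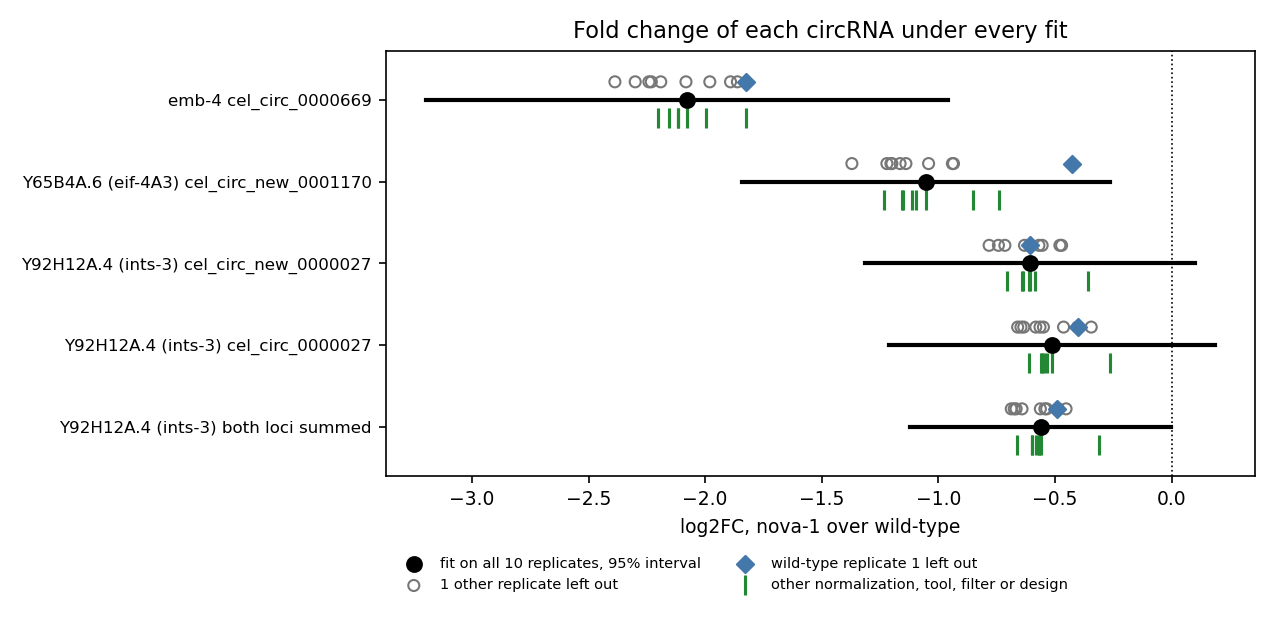
log2FC of *nova-1* over wild-type (horizontal axis) for the 4 loci and the summed pair. Black points and bars are the fit on all 10 replicates with its 95% interval, open circles are fits without 1 other replicate, blue diamonds are fits without wild-type replicate 1, and green ticks are the other settings. The diamond of *Y65B4A.6* lies at -0.43, to the right of all other fits of this locus, whereas every fit of *emb-4* lies between -2.39 and -1.82.

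Neither of the 2 *Y92H12A.4* loci passed the adjusted threshold, and the 95% interval of each reached from a decrease to a slight increase. The locus cel_circ_new_0000027 had 25, 26, 20, 29 and 11 counts in wild-type replicates 1 to 5, and 23, 12, 22, 9 and 15 in *nova-1* replicates 1 to 5. The locus cel_circ_0000027 had 36, 33, 12, 21 and 22 counts in wild-type replicates 1 to 5 and 23, 7, 27, 23 and 14 in *nova-1* replicates 1 to 5. At both loci the groups overlapped. For cel_circ_new_0000027, the means were 23.5 ± 8.31 and 15.2 ± 4.42 normalized counts (SD, n = 5 each), with a log2FC of -0.61 (95% interval -1.31 to 0.10, adjusted *P* = 0.195, edgeR). For cel_circ_0000027, they were 25.4 ± 7.76 and 17.8 ± 7.11 (SD, n = 5 each), with a log2FC of -0.51 (95% interval -1.21 to 0.19, adjusted *P* = 0.267, edgeR).

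Summed, the *ints-3* circRNA had 61, 59, 32, 50 and 33 counts in wild-type replicates 1 to 5, and 46, 19, 49, 32 and 29 in *nova-1* replicates 1 to 5. Wild-type replicates 1, 2 and 4 were above every *nova-1* replicate, and replicates 3 and 5 were within their range. The means were 49.0 ± 12.2 and 33.1 ± 9.27 normalized counts (SD, n = 5 each). The log2FC was -0.56 (standard error 0.27, 95% interval -1.12 to -0.00071), with an unadjusted *P* of 0.0497 and an adjusted *P* of 0.12 (edgeR). The summed junction did not pass the adjusted threshold. It met the looser unadjusted rule in 4 of the 10 fits without one replicate. The unadjusted rule was missed without wild-type replicate 1, 2 or 4 and without *nova-1* replicate 2, 4 or 5 (unadjusted *P* of 0.0582, 0.117, 0.0814, 0.119, 0.064 and 0.0853, edgeR). It was also missed with column totals, total sequenced reads and robust dispersion estimation (unadjusted *P* of 0.318, 0.0547 and 0.0574, edgeR). With the pair summed, the level of this circle ranked 29 in wild-type and 48 in *nova-1* mutants among the 140 rows.

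The counts of the pair were split about evenly between both junctions. The share on cel_circ_0000027 was 59.0%, 55.9%, 37.5%, 42% and 66.7% in wild-type replicates 1 to 5 and 50%, 36.8%, 55.1%, 71.9% and 48.3% in *nova-1* replicates 1 to 5. The wild-type mean was 52.2% ± 12.1 and the *nova-1* mean 52.4% ± 12.8 (SD, n = 5 each), which differ by 0.20 percentage points (two-sided exact permutation test, p = 0.976). With 19 to 61 counts per replicate, the 95% Wilson intervals were wide, and 1 of 10 did not include 50%, that of *nova-1* replicate 4 (54.6% to 84.4%, 32 counts). These intervals cover counting error only.

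**Figure D4:**
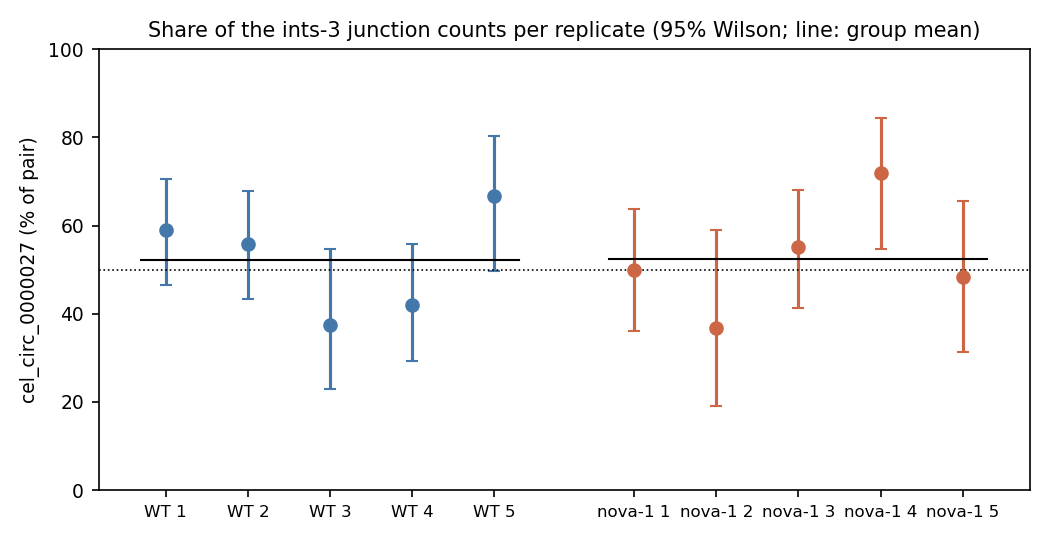
Share of the *Y92H12A.4* (*ints-3*) junction counts that fell on cel_circ_0000027 (vertical axis, %) in each replicate, with 95% Wilson intervals for counting error. Black lines are the group means, 52.2% in wild-type and 52.4% in *nova-1* mutants, and the dotted line is at 50%.

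The *emb-4* circRNA was the only one of the 4 on the chromosome of *nova-1*, which lies on chromosome V from 18070004 to 18081906, and its locus is 789 kb away. Of the 10 circRNA loci within 2 Mb of *nova-1*, 4 were lower and 1 was higher in *nova-1* mutants at the adjusted threshold (edgeR), compared to 12.8% and 15.6% of all loci. All 6 loci within 1 Mb had a negative log2FC, compared to 57.4% of all loci. With column totals it was 5 of 6 (the log2FC of *wars-1* was 0.28), compared to 38.3% of all loci. With TMM, 3 of the 6 loci passed the adjusted threshold. These were *emb-4*, *ZK228.3* at 377 kb and an unnamed locus at 18529389 to 18529840 in the coordinates of the table. *ZK228.3* had 8 to 42 counts in wild-type and 0 in every *nova-1* replicate, where a low level cannot be told from none. The unnamed locus had a log2FC of -2.47 (adjusted *P* = 0.000327, edgeR). The other 3 did not pass, and among them is the locus nearest to that of *emb-4*, *wars-1*, which encodes a tryptophanyl-tRNA synthetase and starts 14.8 kb away. The *wars-1* circRNA had 17.6 ± 13.6 wild-type and 17.4 ± 3.62 *nova-1* normalized counts (SD, n = 5 each; log2FC -0.04, 95% interval -0.88 to 0.80, adjusted *P* = 0.941, edgeR). Wild-type replicate 1 had 44 raw counts of it, against 4 to 16 in the other wild-type and 14 to 22 in the *nova-1* replicates. At the locus at 18956094, which also did not pass, that replicate had 39 raw counts, against 3 to 7 and 3 to 14. The negative signs of both loci thus leaned on wild-type replicate 1, and their log2FC without it was not examined. Between 1 and 2 Mb, *mrp-7* was lower (log2FC -1.10, adjusted *P* = 0.0156, edgeR) and 1 of 2 *fars-2* loci was higher (log2FC 1.12, adjusted *P* = 0.00406, edgeR). With the filter on low counts, which took *emb-4* out of the test, 3 of these 10 loci passed, and without wild-type replicate 1 there were 7. Loss of *nova-1* and other differences between the strains near *nova-1* cannot be told apart here.

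**Figure D5:**
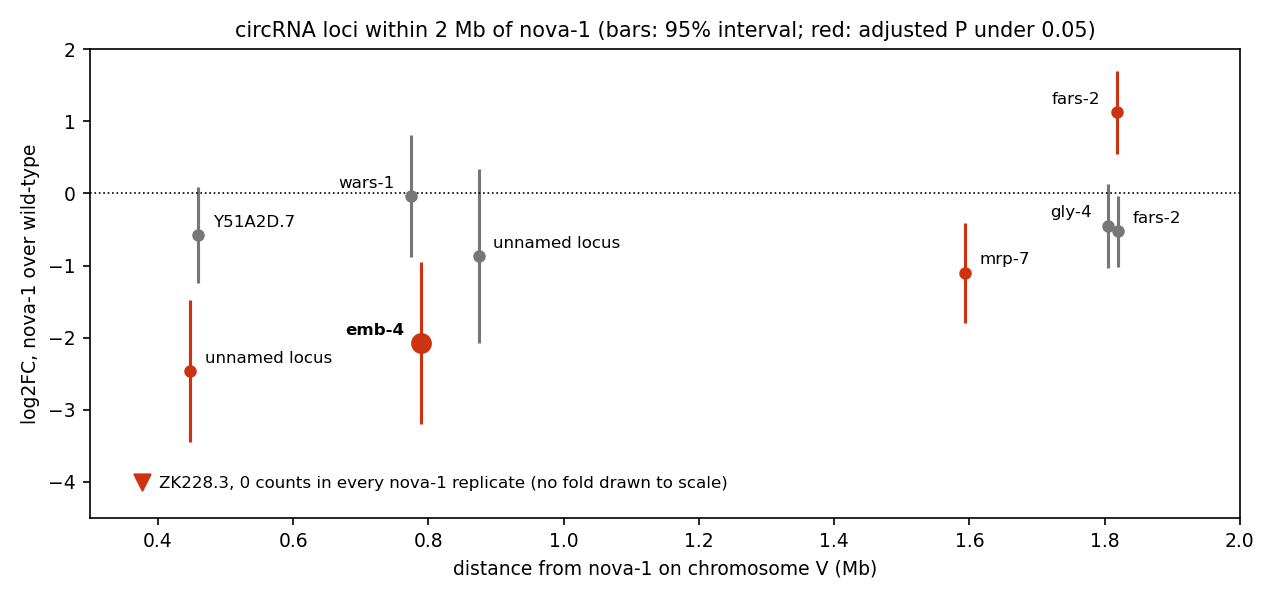
log2FC of *nova-1* over wild-type (vertical axis) of the 10 circRNA loci within 2 Mb of *nova-1* against their distance from it in Mb, with 95% intervals. Red marks an adjusted *P* under 0.05 (edgeR), and the triangle marks *ZK228.3*, which had 0 counts in every *nova-1* replicate and is not placed on the scale. The *emb-4* locus, with -2.08, lies next to *wars-1*, with -0.04.

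Among 12 further genes of RNA processing and RNA regulation that host a circRNA in the study's list, 6 had a locus in the count table, and 1 of them passed the adjusted threshold. The *gld-2* circRNA rose from 103 ± 21.1 to 249 ± 31.3 normalized counts (SD, n = 5 each; log2FC 1.27, adjusted *P* = 0.000278, edgeR), opposite to the 4 loci above. GLD-2 is the catalytic subunit of a cytoplasmic poly(A) polymerase. None of the other 5 passed the adjusted threshold. The circRNA of *eri-5*, a gene of the endogenous siRNA pathway, had a log2FC of -1.30 with an unadjusted *P* of 0.0267 (adjusted *P* = 0.0769, edgeR). The circRNAs of *smg-6*, which encodes a nuclease of nonsense-mediated decay, *snpc-1.2*, a subunit of the snRNA-activating complex, and *ntl-11*, a subunit of the CCR4-NOT deadenylase, had log2FC of -0.06, -0.19 and -0.06. The *ddx-19* circRNA, from a gene for an mRNA export helicase, had 0 to 2 counts in every replicate, too few for a fold change. The median log2FC of the 6 loci was -0.13, and -0.06 without *ddx-19*. The *eri-5* value lay between those of *emb-4* and *Y65B4A.6*, and the difference between these lists was not tested.

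Over the 10 samples, which include both genotypes, the Pearson correlation of log2(normalized count + 1) was 0.37 between both *Y92H12A.4* loci and 0.26 to 0.51 between the other pairs of members. The loci most like *emb-4* were cel_circ_0000162 of *Y105E8A.25* (r = 0.87), the unnamed locus at 18529389 on chromosome V (0.83) and *ZK228.3* (0.83). The loci most like *Y65B4A.6* were those of the collagen gene *col-181* (r = 0.81), *tbc-9* (0.78) and *sec-23* (0.77). Like *Y65B4A.6*, each of these had its highest count in wild-type replicate 1. For *col-181* this was 2481 counts, against 162 to 471 in the other replicates. The correlations without that replicate were not computed. For cel_circ_new_0000027 they were *daf-25* (r = 0.75), *ddx-19* (0.71, with 0 to 2 counts per replicate, too few to describe a pattern) and *K02D10.1* (0.71), and for cel_circ_0000027 they were cel_circ_new_0000503 of *Y105E8A.25* (r = 0.74), *zip-9* (0.69) and *npp-8* (0.66). All loci of a sample share the library and its scaling, and these correlations are a description of the 10 samples.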

How the data were processed

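The members and gene lists were chosen with earlier results of these data known. The authors deposited 1 table of raw counts of reads per back-splice junction for the 10 samples. By the study's methods, HISAT2 and BWA alignment to WBcel235/ce11 was followed by CIRI2, which predicted the loci, and loci under 12 junction reads were removed. Reads mapped with Bowtie2 to 200-nt scaffolds were cleared of duplicates with Picard and counted with featureCounts. Removal of duplicates can lower the counts of abundant loci most.

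Of the 141 loci, 138 were linked to a host gene, 112 by identical coordinates. Exons are those of Ensembl release 115, and no genome sequence was used here. The quasi-likelihood test (glmQLFit and glmQLFTest in edgeR v4.0.16, R v4.3.3, TMM, no filter) took every locus, with Benjamini–Hochberg adjustment over all 141. Standard errors are the absolute log2FC over the square root of *F*. The *Y92H12A.4* pair was also tested as 1 row of 140. Named were all member loci, the 3 loci most correlated with each, every measured locus of the further RNA-processing genes, and the called loci within 2 Mb of *nova-1*; *wars-1* and the locus at 18956094 on chromosome V were added after their values were seen. On simulated counts for the 141 loci, edgeR recovered 27 of 30 loci changed by a log2FC of 1.5 and called 2 of 111 unchanged ones, against 26 and 3 with DESeq2 (v1.42.0). The simulation gave all loci the same dispersion (0.105) and held no replicate that stood apart. Its rates therefore show that the code works and do not carry over to the calls in these data. Alternatives were RLE factors, column totals, total sequenced reads, DESeq2, a filter on low counts, robust dispersion, a replicate block, summing loci with ends within 2 nt, and leaving out each replicate. The counts over the RNA-processing list and near *nova-1*, and the median and direction of all loci, were added to these after the data were seen. No pair of replicates agreed within sampling noise, by a chi-squared statistic on their counts over the loci. Wild-type replicate 1 stood furthest apart, with 17.6 to 27.5 per degree of freedom against each of the other wild-type replicates. Pairs without it, in either genotype, had 2.47 to 8.26. Abundant loci weigh most in this statistic, such as *col-181* with 2481 counts in wild-type replicate 1 and 399 in wild-type replicate 2. The statistic does not describe the 4 member loci by themselves. Wild-type replicate 1 is part of every fold change given, except where it was left out.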

Additional observations from a re-analysis of the deposited data

Results flagged for a closer look

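Of 43 groups of 5 replicates that were examined, 4 had 1 replicate far from the other 4 (a gap to its neighbour exceeding 0.71 of the range). About 2.15 such groups would arise by chance if the groups were independent and normally distributed. These groups are partly low counts and partly overlap, so that this number is only a rough guide. In wild-type, replicate 1 had 124.77 normalized counts for the *Y65B4A.6* circRNA, against 25.6 to 53.7 in the others. The same replicate had 35.01 normalized counts at the unnamed locus at 18956094 to 18956423 on chromosome V, 85.2 kb from the *emb-4* locus, against 2.99 to 8.35. In *nova-1* mutants, replicate 5 had 12.01 normalized counts for the *smg-6* circRNA, against 2.68 to 4.99, and replicate 1 had 1.636 for the *ddx-19* circRNA (2 counts), against 0 in the others. With 0 in the others, any count of *ddx-19* in that replicate would have been flagged. The library total of wild-type replicate 1, the highest of all, was not set apart by this measure. The part of that replicate in the differences was measured by leaving it out, as given in the text for *Y65B4A.6*.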

How the results depend on the processing

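The *emb-4* circRNA stayed past the adjusted threshold in all 7 other settings that gave a value (log2FC -2.20 to -1.82, adjusted *P* 0.00239 to 0.013), and the filter on low counts gave none. The *Y65B4A.6* circRNA kept its direction in all settings and lost the adjusted threshold with column totals (log2FC -0.74), DESeq2 (-1.15), robust dispersion (-1.05) and the replicate block (-0.85, adjusted *P* = 0.0518, edgeR), with log2FC -1.37 to -0.43 when one replicate was left out. The *Y92H12A.4* loci stayed below 0 and short of the adjusted threshold in every setting (-0.78 to -0.36, -0.66 to -0.26, and -0.69 to -0.31 when summed). The difference in junction share changed sign when one replicate was left out, from -4.67 to 4.09 percentage points, and was 0.95 with counts summed over replicates. Column totals moved the median log2FC of all loci to 0.14 and the share of called loci that were higher in *nova-1* mutants to 68.6%. In that setting the *emb-4* log2FC relative to the median was still negative (-1.82 against 0.14). With the filter on low counts, which took *emb-4* out of the test, 3 loci near *nova-1* passed, against 5 without it. Leaving out one replicate gave 48 to 58 loci by the unadjusted rule and 31 to 48 by the adjusted one. Deviations of same-numbered replicates correlated between -0.16 and 0.15 across loci, and only 1 of 5 wild-type replicates correlated best with its own number. No pairing by number was thus seen, but these values cannot exclude one. The block changed no other call of the 4 loci at the adjusted threshold. Under the block the summed *Y92H12A.4* pair had an unadjusted *P* of 0.0577 (edgeR). For the share, the block gave the same 0.20 points.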
